A study of Mus musculus with 30 samples.

Results

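The 10 neural progenitor transcription factor genes Sox1, Sox3, Sox21, Sox4, Sox11, Pax6, Irx3, Nkx6-1, Neurog2 and Olig2 were followed through the differentiation of mouse embryonic stem cells (ESCs) towards neuromesodermal progenitors (NMPs), the bipotent cells at the caudal end of the embryo from which spinal cord and paraxial mesoderm form. They were chosen by name, with earlier results of these data known, and are 10 of the 54134 rows of the count table. Of these, 8 passed the filter on low counts, as did 12149 genes in all, while Sox21 and Neurog2 did not and were described without a test. The cells were of the ES-Bruce4 line, either wildtype or Nr6a1-/-, and all groups received FGF2 from the start of differentiation. Groups were d2, which had received FGF2 alone, d2.5 and d3, which had received the Wnt pathway agonist CHIR99021 for 12 h and 24 h, d4, which was kept in the same culture for a further day, and d4G, in which Gdf11 was added for the last 24 h. The 5 stages and 2 genotypes made 10 groups, with 3 replicates in each. All Nr6a1-/- libraries were of 1 clone that carries deletions within the exon for the DNA-binding domain, so that genotype and clone cannot be told apart, and the ESCs had been grown on feeder fibroblasts that were depleted before differentiation.

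These factors act at successive steps of spinal cord development. Sox1, Sox3 and their relative Sox2 form the SoxB1 group, which keeps cells in the neural progenitor state, and Sox21 belongs to the SoxB2 group, which opposes SoxB1 activity. Sox4 and Sox11 are SoxC factors, best known for their part in neuronal differentiation but made in many embryonic tissues. Pax6, Irx3, Nkx6-1 and Olig2 divide the neural tube into progenitor domains along its dorsoventral axis, where Irx3 and Olig2 repress each other, and Neurog2 is a proneural factor that commits progenitors to become neurons. Nr6a1, also called GCNF, is an orphan nuclear receptor and is known to bind a direct repeat of the half-site AGGTCA.

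Library totals ranged from 1570710 to 3688200 counts, with a median of 2366000, and levels are given as CPM, that is, counts relative to the library total after scaling by TMM factors. A count of 0 in a library allows up to 3 counts, or 0.813 to 1.91 CPM, which covers counting error only. Because the libraries hold 3′ ends of transcripts, levels were compared between groups for a gene and not between genes, and the counts of Nr6a1 itself do not check the deletion: its mean in Nr6a1-/- cells was 94.8 CPM at d2 against 85.7 CPM in wildtype (FDR = 0.597), but 287 against 177 CPM at d3 (FDR = 1.74e-05) and 223 against 97.6 CPM at d4 (FDR = 2.27e-10). The library d4 wildtype replicate 2 stood apart from its group, since transcripts that were high at d2 were high in it, with 363 counts of Utf1 against 40 and 26 in the other two, 46 counts of Otx2 against 1 and 0, and 301 counts of Pou3f1 against 7 and 7. Each call between d4 wildtype and another group was therefore also computed without it. The index that marks a library was added at priming, before samples were pooled. In the labels each of the 6 d4 libraries has an index that 1 other library also has, of d4G for 4 of them and of d3 for 2, while the other 24 libraries all differ. Libraries with the same index cannot have been in 1 pool. For these pairs, pool and stage cannot be told apart in the changes from d3 to d4 and from d4 to d4G. No d3 wildtype library has the index of a d4 library. The labels do not give the pools of the remaining libraries, so that the part of pool in their changes is not known. Chromosome 8, which carries Sox1 and Irx3, was lower as a whole in the Nr6a1-/- clone, where it held 3.77 to 4.32% of all counts of a library against 4.88 to 5.52% in wildtype. In bulk libraries, fewer cells of a type and less RNA per cell cannot be told apart.

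Promoter windows from RefSeq (GRCm38.p6, from 250 bases before the transcription start site to 50 bases after it) were found for 9 of the 10 genes, all but Sox3. The 5 windows below belong to the genes that were called between genotypes at 2 or more stages. They are printed 5′ to 3′ on the strand of the gene, in lower case, with the AGGTCA half-site of Nr6a1 in capitals.
Sox1 (chr8:12395269-12395568, plus strand): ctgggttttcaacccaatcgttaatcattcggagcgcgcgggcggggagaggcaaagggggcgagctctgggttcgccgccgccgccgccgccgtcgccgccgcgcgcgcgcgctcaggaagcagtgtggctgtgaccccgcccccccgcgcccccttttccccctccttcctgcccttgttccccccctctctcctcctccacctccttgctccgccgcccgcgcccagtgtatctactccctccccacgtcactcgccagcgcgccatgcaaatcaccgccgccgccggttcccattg
Sox4 (chr13:28953650-28953949, minus strand): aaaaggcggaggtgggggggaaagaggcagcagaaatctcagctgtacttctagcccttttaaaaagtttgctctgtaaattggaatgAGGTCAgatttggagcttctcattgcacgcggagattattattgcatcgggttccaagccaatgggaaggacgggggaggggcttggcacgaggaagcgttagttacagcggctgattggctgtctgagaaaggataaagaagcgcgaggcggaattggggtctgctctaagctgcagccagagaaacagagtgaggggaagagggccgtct
Sox11 (chr12:27342669-27342968, minus strand): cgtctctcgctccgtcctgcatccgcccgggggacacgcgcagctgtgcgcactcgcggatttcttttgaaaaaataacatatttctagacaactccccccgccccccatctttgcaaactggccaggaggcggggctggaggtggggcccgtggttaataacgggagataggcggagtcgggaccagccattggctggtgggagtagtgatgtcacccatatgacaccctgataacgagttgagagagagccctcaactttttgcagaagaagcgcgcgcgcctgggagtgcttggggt
Irx3 (chr8:91801605-91801904, minus strand): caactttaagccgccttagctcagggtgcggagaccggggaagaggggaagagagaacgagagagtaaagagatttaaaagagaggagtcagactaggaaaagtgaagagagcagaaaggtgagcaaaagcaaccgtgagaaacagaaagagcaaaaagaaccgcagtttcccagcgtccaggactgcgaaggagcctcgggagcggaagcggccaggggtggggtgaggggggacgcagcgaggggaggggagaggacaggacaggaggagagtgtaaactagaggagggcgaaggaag
Olig2 (chr16:91225300-91225599, plus strand): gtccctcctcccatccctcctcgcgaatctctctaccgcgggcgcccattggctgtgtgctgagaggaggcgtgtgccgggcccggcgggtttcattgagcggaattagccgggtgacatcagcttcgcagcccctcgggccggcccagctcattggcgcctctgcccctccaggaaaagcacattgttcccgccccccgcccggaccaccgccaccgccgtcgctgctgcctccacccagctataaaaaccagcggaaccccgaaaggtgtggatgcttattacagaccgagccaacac
Of the windows found, the half-site lay only in that of Sox4, on the strand of the gene and starting at position -162 from the start site. Of all 32851 windows of this length, 16.3% hold AGGTCA on either strand. The extended form TCAAGGTCA and the direct repeat of the half-site with no spacer, both of which contain the half-site and were searched on both strands, were in none of the windows of these genes and in 0.423% and 0.00609% of all windows. The windows are rich in CG dinucleotides, with 10 to 40 of them against a median of 7 over all windows, and between 46.33 and 70.67% of their bases are G or C against a median of 52.67%. These matches are descriptions of letters in the windows and not of binding.

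Between genotypes, the largest number of these factors was called at d4. Genes were called at a false discovery rate (FDR) below 0.05 over all 12149 genes tested, in 1 edgeR model of all 30 libraries. At d2, 2 of the 8 tested factors were called, both lower in Nr6a1-/- cells (Sox1 and Olig2), where 4.07% of all genes tested were called, 1.35% higher and 2.72% lower. At d2.5, 1 was called, as higher (Sox11), against 6.45% of all genes, 2.86% higher and 3.59% lower. At d3, 2 were called, both lower (Sox1 and Irx3), against 10.8%, of which 4.47% higher and 6.3% lower. At d4, 1 was higher (Sox11) and 4 lower (Sox1, Sox4, Irx3 and Olig2), against 9.7% and 9.18% (18.9% in either direction), and without d4 wildtype replicate 2 the calls of Sox1 and Olig2 were lost, which left 3. At d4G, 2 were called, both lower (Sox4 and Irx3), against 7.9% of all genes, 3.28% higher and 4.63% lower. The median log2 fold change of the 8 factors, Nr6a1-/- over wildtype, was similar at d2.5 (-0.66), d4 (-0.77) and d4G (-0.68). It was -0.21 at both d2 and d3. For all genes tested the median lay between -0.01 and 0.02 at every stage. The d4 value of the factors includes d4 wildtype replicate 2. Sox3, Pax6 and Nkx6-1 were not called between genotypes at any stage.

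**Figure D1:**
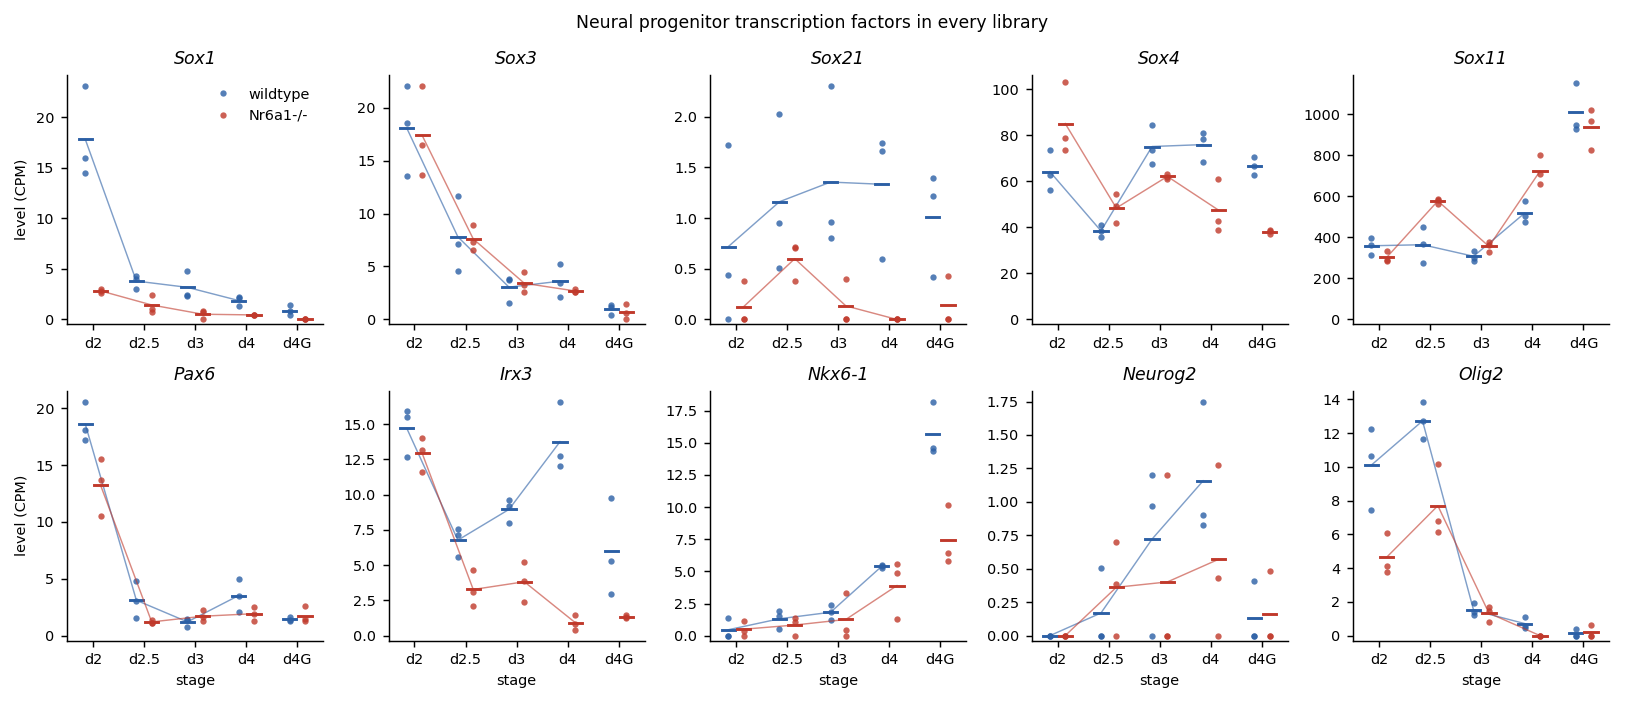
Level of each of the 10 genes in CPM (vertical axis, linear, a scale for each gene) by stage (horizontal axis), with a point for each library, a bar for the mean of 3 libraries, and lines joining the means from d2 to d4. In the Irx3 panel the d4 wildtype libraries sit at 12.0 to 16.6 CPM and the Nr6a1-/- libraries at 0.433 to 1.45 CPM, and in the Sox1 panel the 2 genotypes are furthest apart at d2.

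**Figure D2:**
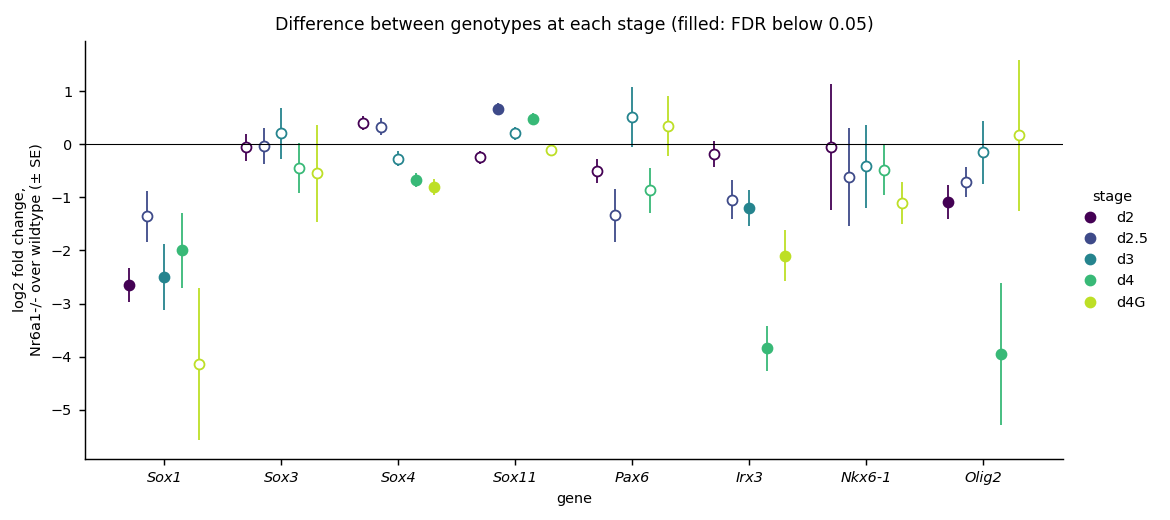
Log2 fold change of Nr6a1-/- over wildtype with its standard error (vertical axis) for the 8 tested genes (horizontal axis) at 5 stages (colour), filled where FDR is below 0.05. Irx3 goes from -0.18 at d2 to -3.85 at d4, Sox4 goes from 0.40 at d2 to -0.80 at d4G, and Sox3 stays between -0.55 and 0.21 with no filled point.

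Sox1, the SoxB1 factor that marks the definitive neural plate, was already lower in Nr6a1-/- cells before Wnt activation. At d2 the wildtype libraries held 14.4, 15.9 and 23.1 CPM and the Nr6a1-/- libraries 2.82, 2.996 and 2.66 CPM. The groups did not overlap, and the log2 fold change was -2.65 ± 0.32 (SE, FDR = 7.41e-07), or 6.30-fold lower. In wildtype cells Sox1 then fell by 2.23 on the log2 scale in the first 12 h of CHIR99021 (FDR = 2.18e-06), to 4.29, 3.05 and 4.05 CPM at d2.5. In Nr6a1-/- cells, which started low, the change over the same step was -0.94 (FDR = 0.176), and the difference between genotypes in this step was not tested. From d2.5 on, Sox1 was a gene of few counts, with 23, 22, 18 and 6 counts over the wildtype libraries of d2.5, d3, d4 and d4G and 12, 4, 3 and 0 over the Nr6a1-/- libraries. The Nr6a1-/- libraries lay below every wildtype library at each of these stages, as also at d2. The log2 fold change was -1.36 at d2.5 (FDR = 0.0956), which missed the threshold, -2.50 at d3 (FDR = 0.00622) and -1.998 at d4 (FDR = 0.0429). At d3 the call was lost without d3 wildtype replicate 3, which held 12 of the 22 counts (log2 fold change -1.996, FDR = 0.083). At d4 the pooled counts gave a level 4.36-fold lower, with a counting interval of 1.27 to 23.1, and the call was lost without d4 wildtype replicate 2 (log2 fold change -1.88, FDR = 0.111) and under most other alternatives. At d4G, with 6 counts against 0, Sox1 was not called (FDR = 0.0732). It was 1.71-fold lower when computed against 3 counts over the group. Its counting interval began at 1.008, and this interval leaves out the spread between replicates.

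Sox3, the X-linked SoxB1 factor, followed the same course in both genotypes. Wildtype libraries held 13.6, 18.6 and 22.0 CPM at d2 and Nr6a1-/- libraries 13.7, 16.5 and 22.0 CPM, so that the groups overlapped, as they did at every stage. Sox3 fell in the first 12 h of CHIR99021, by 1.22 on the log2 scale in wildtype (FDR = 0.00258) and by 1.20 in Nr6a1-/- cells (FDR = 0.00178). It fell again from d2.5 to d3, by 1.37 (FDR = 0.0301) and by 1.13 (FDR = 0.0386), calls that were lost when some single libraries were left out. The log2 fold change between genotypes lay between -0.55 and 0.21, with a 95% interval of -0.56 to 0.45 at d2 and of -2.34 to 1.24 at d4G, where 7 and 4 counts were left over the 3 libraries of each genotype. Sox3 and Sox1 thus differed in the comparison of genotypes at d2, where the 95% interval for Sox1 was -3.29 to -2.02.

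Sox21, the SoxB2 factor, was near the limit of detection and did not enter the tests. Over all 15 wildtype libraries it had 41 counts, and over all 15 Nr6a1-/- libraries 8, with 1 wildtype library and 9 Nr6a1-/- libraries at 0. At d4 the wildtype libraries held 4, 6 and 2 counts and the Nr6a1-/- libraries 0, 0 and 0. Pooled counts at d4 gave a level 2.91-fold lower when computed against 3 counts over the group, with a counting interval that began at 2.02. At d3 the counts were 2, 5 and 2 against 1, 0 and 0, or 10.03-fold lower (counting interval 1.39 to 439.8). The ratio was 6.30 at d2 (0.765 to 289.8), 1.91 at d2.5 (0.523 to 7.64) and 5.99 at d4G (0.770 to 270.2), intervals that include no difference. A long noncoding RNA gene on the other strand, Gm4675, overlaps the Sox21 locus and had 42 counts over all libraries, and whether counting used strand is not given in the sources used here.

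Sox4 and Sox11, the SoxC factors, had enough counts for small changes to be tested, with at least 60 and 544 counts in every library. Sox4 was lower in Nr6a1-/- cells at the last stages, d4 and d4G. At d2 the wildtype libraries held 62.5, 56.3 and 73.6 CPM and the Nr6a1-/- libraries 78.6, 103.0 and 73.6 CPM, a log2 fold change of 0.40 (FDR = 0.0922) between groups that overlapped. At d4 the wildtype libraries held 78.5, 68.2 and 81.1 CPM and the Nr6a1-/- libraries 61.1, 42.6 and 38.8 CPM, all below wildtype. The log2 fold change was then -0.67 ± 0.14 (SE, FDR = 0.000482), and -0.76 without d4 wildtype replicate 2 (FDR = 0.000380). At d4G, 70.7, 62.5 and 66.6 CPM stood against 37.0, 38.2 and 39.0 CPM, with no overlap. This difference, -0.80 ± 0.15 (FDR = 0.000299), held under every alternative run, as did that at d4. Within wildtype cells Sox4 fell by 0.75 from d2 to d2.5 (FDR = 0.000281) and rose by 0.96 from d2.5 to d3 (FDR = 1.52e-05), returning to 73.4, 84.2 and 67.6 CPM. Nr6a1-/- cells fell by 0.82 in the first step (FDR = 1.72e-05), while the second step was 0.36 (FDR = 0.0761). Between genotypes, the change of Sox4 from d2 to d3 differed by -0.67 ± 0.19 (FDR = 0.0544), just outside the threshold and inside it under 6 of 20 alternatives.

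Sox11 moved the other way. It was higher in Nr6a1-/- cells at d2.5, with 562, 583 and 586 CPM against 365, 276 and 450 CPM in wildtype, a log2 fold change of 0.67 ± 0.12 (FDR = 0.000239) between groups that did not overlap. At d4 it was again higher, with 658, 799 and 710 CPM against 503, 475 and 576 CPM (log2 fold change 0.48 ± 0.12, FDR = 0.00258), and 0.40 without d4 wildtype replicate 2 (FDR = 0.0274). At d3, between these stages, the groups overlapped and the log2 fold change was 0.21 (FDR = 0.303). In Nr6a1-/- cells Sox11 rose by 0.93 in the first 12 h of CHIR99021 (FDR = 1.45e-07), fell by 0.70 in the next 12 h (FDR = 3.38e-05) and rose by 1.02 from d3 to d4 (FDR = 1.75e-08). In wildtype cells the first 2 steps were 0.02 (FDR = 0.921) and -0.24 (FDR = 0.215), and the third was a rise of 0.75 (FDR = 9.62e-06). Sox4 and Sox11 were therefore called in opposite directions at d4, with Sox4 lower and Sox11 higher in Nr6a1-/- cells.

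Pax6, which marks neural progenitors of most of the dorsoventral axis, fell early in both genotypes. Wildtype libraries held 20.6, 18.1 and 17.2 CPM at d2 and 4.76, 3.05 and 1.52 CPM at d2.5, a fall of 2.54 on the log2 scale (FDR = 5.99e-08). Nr6a1-/- libraries held 15.5, 10.48 and 13.7 CPM at d2 and 1.15, 1.40 and 1.07 CPM at d2.5, a fall of 3.38 (FDR = 2.73e-09). At both of these stages all Nr6a1-/- libraries lay below all wildtype libraries, but neither difference passed the test (log2 fold change -0.50 with FDR = 0.265, and -1.34 with FDR = 0.114). In wildtype, Pax6 was called higher at d4 than at d3 (1.54, FDR = 0.0168), and this rested on d4 wildtype replicate 2, which held 18 counts against 8 and 7 in the others. Without that library the change was 1.15 (FDR = 0.170).

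Irx3, which is expressed in progenitors of the intermediate and dorsal neural tube, showed the difference between genotypes with the best support after d2. At d2 it did not separate the groups, with 12.7, 15.9 and 15.5 CPM in wildtype and 13.2, 11.6 and 14.0 CPM in Nr6a1-/- cells (log2 fold change -0.18, 95% interval -0.66 to 0.29). It fell over the first 12 h of CHIR99021 in both, by 1.11 in wildtype (FDR = 0.00337) and by 1.97 in Nr6a1-/- cells (FDR = 7.18e-06). From d2.5 on all Nr6a1-/- libraries lay below all wildtype libraries. At d3 the wildtype libraries held 20 counts each and the Nr6a1-/- libraries 6, 9 and 14 (log2 fold change -1.20 ± 0.33, FDR = 0.0144). At d4 the wildtype libraries held 38, 46 and 40 counts, or 16.6, 12.7 and 12.0 CPM, and the Nr6a1-/- libraries 1, 3 and 2 counts, or 0.433, 1.45 and 0.852 CPM. The log2 fold change was -3.85 ± 0.42 (FDR = 5.01e-09), or 14.4-fold lower, and -3.91 without d4 wildtype replicate 2 (FDR = 2.17e-08). Over the step from d3 to d4, Irx3 fell by 2.05 in Nr6a1-/- cells (FDR = 0.00465) and changed by 0.60 in wildtype (FDR = 0.0966). The difference between genotypes in this step was itself called, at -2.65 ± 0.60 (FDR = 0.00511), and Irx3 was the only one of the 8 tested factors of which this was so, where 5.72% of all genes were called in this comparison, 2.75% lower and 2.97% higher. This call was kept without each library in turn and under every other alternative run. When the change from d2 to d3 was compared between genotypes in the same way, 0 of the 8 factors were called by edgeR, against 2.27% of all genes (1.19% higher and 1.09% lower). Of these, 3 (Sox4, Sox11 and Irx3) had an unadjusted p below 0.05, and DESeq2 called 0 of the 2 that it gave an adjusted p (Sox4 and Sox11).

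Irx3 lies at chr8:91798525-91802067 on the minus strand and Sox1 at chr8:12395295-12400126 on the plus strand (GRCm38), so that both are on the chromosome that was lower as a whole in the Nr6a1-/- clone. Of its 655 tested genes, 23.1 to 30.5% were called lower at the 5 stages, against 1.56 to 8.004% of genes elsewhere, and their median log2 fold change was -0.38 at d2 and -0.29 at d4. Sox1 was the lowest of the 655 at d2, at 2.28 below the median of the chromosome, and Irx3 was the second lowest at d4, at 3.55 below it. At d2 Irx3 lay 0.19 above the median. When the chromosome was scaled by its own totals, Sox1 remained lower at d2 (log2 fold change -2.30, FDR = 1.79e-05) and at d3 (-2.16, FDR = 0.0257) but not at d4 (-1.72, FDR = 0.0958). Irx3 remained lower at d4 (-3.56, FDR = 4.20e-08) and at d4G (-1.80, FDR = 0.0153), and its call at d3 was lost (-0.84, FDR = 0.115). The difference between genotypes in its step from d3 to d4 was -2.72 with this scaling (FDR = 0.00381).

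**Figure D3:**
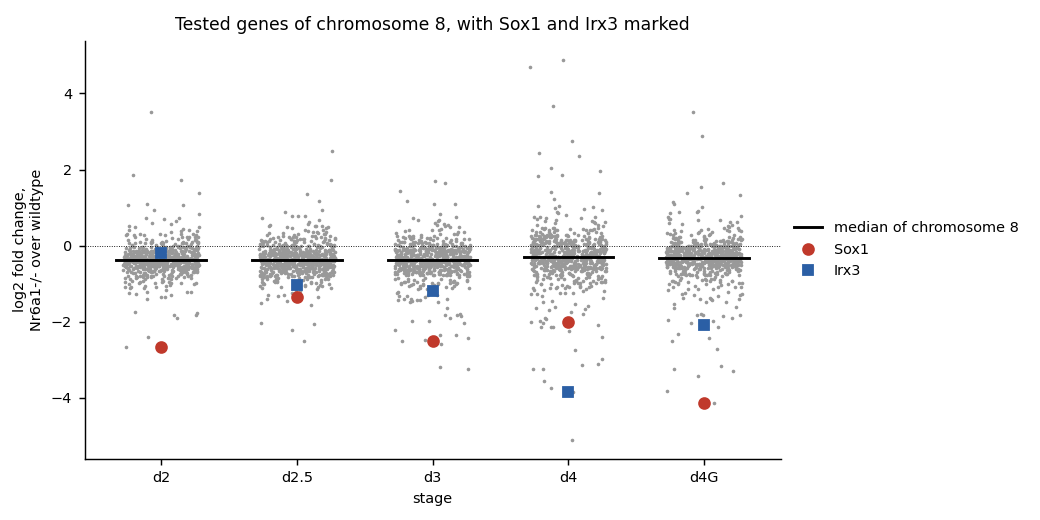
Log2 fold change of Nr6a1-/- over wildtype (vertical axis) of the 655 tested genes of chromosome 8, a grey point each, at 5 stages (horizontal axis, with points spread sideways at random), with their median as a black bar. Sox1 (circle) is the lowest at d2 and Irx3 (square) the second lowest at d4, while the median stays between -0.38 and -0.29, and the point of Sox1 at d4G, from 6 counts against 0, depends on the prior count of the fit.

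Of the 3 nearest tested genes on each side of Sox1, only Arhgef7 was called, as lower at d2.5 (-0.89, FDR = 0.000239) and at d3 (-0.60, FDR = 0.00570). At d2 the log2 fold changes of these neighbours ran from -0.49 to 0.15. The tested genes nearest to Irx3 were not all lower. On the side of lower coordinates, Gm9619 and Rpgrip1l were not called at any stage, and Fto, known for its link to Irx3 regulation, was lower at d2 (-0.56, FDR = 0.0198) and d2.5 (-0.51, FDR = 0.0217) but not at d4 (0.08, FDR = 0.709). On the other side, Irx5, the neighbouring gene of the same Iroquois cluster, was lower at d2 (-1.27, FDR = 0.0346), d3 (-2.22, FDR = 0.0128), d4 (-3.14, FDR = 1.39e-06) and d4G (-3.15, FDR = 0.000109). At d4 the wildtype libraries held 18, 22 and 24 counts of Irx5 and the Nr6a1-/- libraries 2, 1 and 2. Crnde, a noncoding gene next to Irx5, was lower at d4 (-2.24, FDR = 0.00856), and Mmp2, the next tested gene beyond, at d3, d4 and d4G (-0.997, -1.11 and -1.60). The antisense gene Irx3os, which overlaps Irx3, had 13 counts over all libraries.

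**Figure D4:**
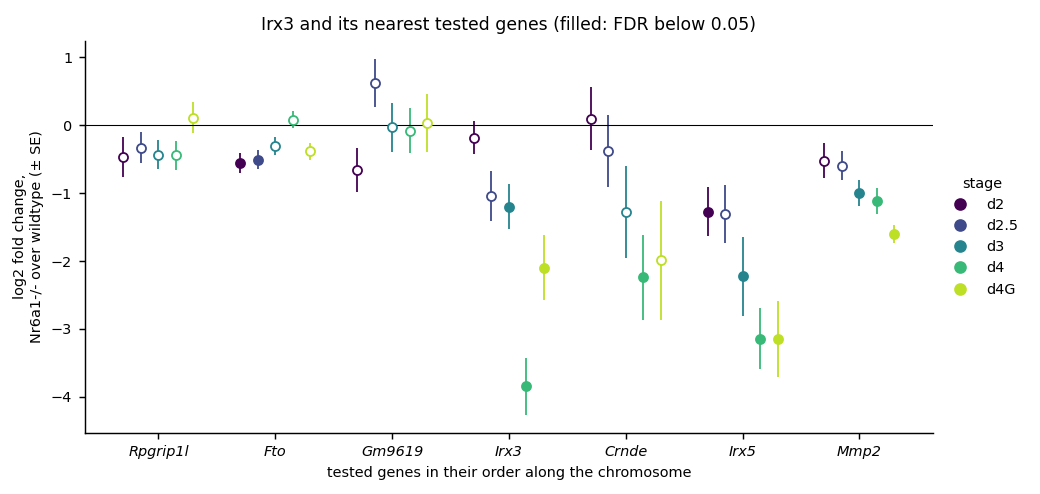
Log2 fold change of Nr6a1-/- over wildtype with its standard error (vertical axis) for Irx3 and the 3 nearest tested genes on each side, in their order along the chromosome (horizontal axis, not to scale), at 5 stages (colour), filled where FDR is below 0.05. Irx3, Crnde and Irx5 lie far below 0 at d4, at -3.85, -2.24 and -3.14, while Fto and Gm9619 lie at 0.08 and -0.08.

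Nkx6-1 and Olig2 are factors of the ventral neural tube, where both act in motor neuron progenitors. Olig2 was a gene of the early stages in these cultures, with 7.43, 12.2 and 10.7 CPM in wildtype at d2 and 13.8, 12.7 and 11.6 CPM at d2.5. Between d2.5 and d3 it fell by 3.06 on the log2 scale in wildtype (FDR = 8.37e-07), to 4, 3 and 3 counts, and by 2.49 in Nr6a1-/- cells (FDR = 3.19e-05), to 2, 4 and 4 counts. At d2 the Nr6a1-/- libraries held 3.77, 4.12 and 6.07 CPM, below all wildtype libraries (log2 fold change -1.09 ± 0.32, FDR = 0.0409). That call was lost under 8 of 13 alternatives, among them leaving out d2 wildtype replicate 2 or 3 or d2 Nr6a1-/- replicate 1 or 2. At d2.5 the Nr6a1-/- libraries, at 6.14, 10.2 and 6.80 CPM, again lay below all wildtype libraries (-0.72, FDR = 0.133). At d4, 1, 4 and 2 counts in wildtype stood against 0, 0 and 0. Computed against 3 counts over the group, Olig2 was 1.70-fold lower at d4, and its counting interval began at 1.05. The call there (FDR = 0.0345) was lost without d4 wildtype replicate 2 (FDR = 0.128) and without each of the Nr6a1-/- libraries.

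Nkx6-1 went the other way with time, with sums over the 3 wildtype libraries of 4, 8, 12, 50 and 109 counts at d2, d2.5, d3, d4 and d4G. In Nr6a1-/- cells the same sums were 4, 7, 10, 26 and 43. The step from d3 to d4 was a rise of 1.57 in wildtype (FDR = 0.0479), which was lost without any of the 6 libraries compared, and was 1.51 in Nr6a1-/- cells (FDR = 0.0941). At d4G the wildtype libraries held 18.1, 14.6 and 14.3 CPM and the Nr6a1-/- libraries 5.77, 10.2 and 6.43 CPM, all below wildtype, a log2 fold change of -1.10 ± 0.39 (95% interval -1.87 to -0.33) that did not pass over all genes tested (FDR = 0.0812).

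Neurog2, the proneural factor, was barely detected, with 28 counts over all 30 libraries and 17 libraries at 0. It had 0 counts at d2 in both genotypes, and its highest sum was 10 counts at d4 in wildtype, in libraries of 4, 3 and 3 counts, against 1, 0 and 3 in Nr6a1-/- cells. The ratio at d4 was 1.82 with a counting interval of 0.524 to 7.94, so that a difference was not detectable at this depth.

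Within a genotype, the step from d2 to d2.5 changed most of these factors. In wildtype cells 5 of the 8 fell in this step (Sox1, Sox3, Sox4, Pax6 and Irx3), where 25.4% of all genes changed, 13.3% up and 12.1% down. Over the same step 1 rose (Sox11) and 4 fell (Sox3, Sox4, Pax6 and Irx3) in Nr6a1-/- cells, against 12.9% and 11.2% of all genes. From d2.5 to d3, 1 rose (Sox4) and 2 fell (Sox3 and Olig2) in wildtype, against 5.91% and 5.56%, while 3 fell (Sox3, Sox11 and Olig2) in Nr6a1-/- cells, against 7.43% and 8.45%. From d3 to d4, 3 rose (Sox11, Pax6 and Nkx6-1) in wildtype, against 9.77% and 11.3% (21.1% in either direction), and only Sox11 rose without d4 wildtype replicate 2. That step held 1 rise (Sox11) and 3 falls (Sox4, Irx3 and Olig2) in Nr6a1-/- cells, against 13.6% and 12.3% of all genes. The fall of Olig2, from 10 counts to 0, was 2.98-fold when computed against 3 counts over the group, with a counting interval that began at 2.00.

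The response to Gdf11, a TGF-beta family ligand of the tail end that promotes the passage from trunk to tail, was read as d4G against d4, which were in different pools for the 4 pairs of libraries that have the same index. In wildtype cells 2 of the 8 factors rose (Sox11 and Nkx6-1) and 3 fell (Sox3, Pax6 and Irx3), where 28.8% of all genes changed, 14.3% up and 14.5% down. Sox11 went from 503, 475 and 576 CPM to 948, 927 and 1148.5 CPM, a rise of 0.96 ± 0.12 (SE, FDR = 5.02e-08). Nkx6-1 went from 5.23, 5.53 and 5.403 CPM to 18.1, 14.6 and 14.3 CPM, a rise of 1.53 ± 0.38 (FDR = 0.00225). Irx3 fell by 1.19 ± 0.28 (FDR = 0.00114), from 16.6, 12.7 and 12.0 CPM to 9.77, 5.28 and 2.95 CPM. Each of these 3 passed under every alternative run. The falls of Sox3 (-1.82, FDR = 0.0165) and Pax6 (-1.28, FDR = 0.0288) did not pass without d4 wildtype replicate 2 (-1.38, FDR = 0.136, and -0.89, FDR = 0.267).

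In Nr6a1-/- cells 1 of the 8 was called with Gdf11, as higher (Sox11), where 8.45% of all genes rose and 9.59% fell. Sox11 rose by 0.37 ± 0.12 (FDR = 0.0193), from 658, 799 and 710 CPM to 1018.2, 965 and 824 CPM, and this did not pass without d4 Nr6a1-/- replicate 1 (FDR = 0.0910) or without d4G Nr6a1-/- replicate 1 (FDR = 0.104) or 2 (FDR = 0.0595). The difference between genotypes in the response was called for Sox11, at -0.59 ± 0.16 (FDR = 0.0400), where 1.49% of all genes were called lower and 1.17% higher, and it was not called without d4 wildtype replicate 2 (-0.52, FDR = 0.108). At d4G itself the levels of Sox11 overlapped between genotypes (log2 fold change -0.11, 95% interval -0.33 to 0.12). Nkx6-1 changed by 0.90 in Nr6a1-/- cells (FDR = 0.229), and its difference in response was -0.63 with a 95% interval of -1.89 to 0.63. Irx3 changed by 0.56 from its low level (FDR = 0.660), and its difference in response was 1.75 (FDR = 0.280). Irx3 was still lower in Nr6a1-/- cells with Gdf11, at 1.44, 1.27 and 1.29 CPM, by 2.10 ± 0.48 on the log2 scale (FDR = 0.00295), a call that was lost without d4G wildtype replicate 1 (FDR = 0.0612).

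**Figure D5:**
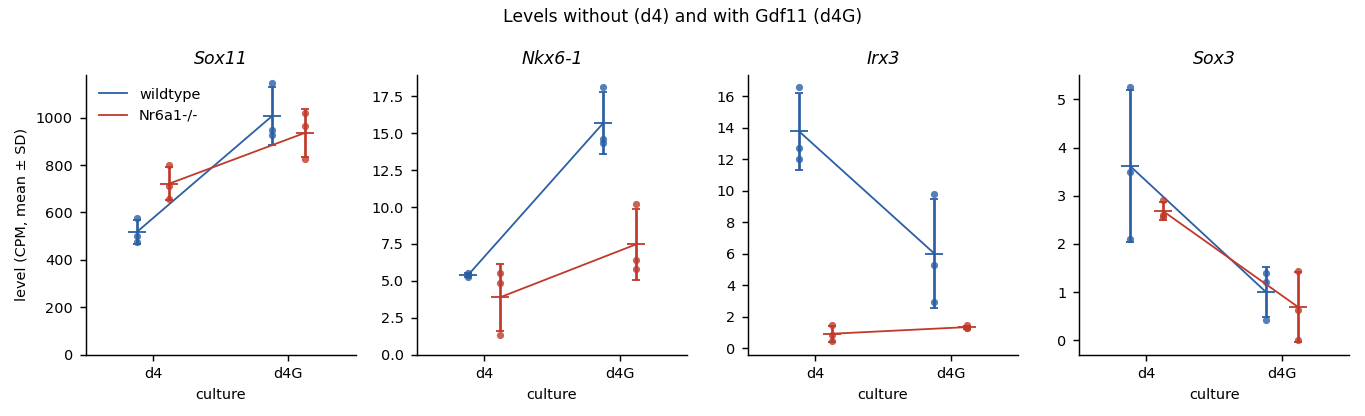
Level in CPM (vertical axis, linear, a scale for each gene) of Sox11, Nkx6-1, Irx3 and Sox3 without Gdf11 (d4) and with it (d4G), with a point for each library and the mean ± SD of 3 libraries. The wildtype mean of Sox11 goes from 518 to 1007.7 CPM and that of Nkx6-1 from 5.39 to 15.7 CPM, while the Nr6a1-/- mean of Irx3 stays at 0.912 and 1.33 CPM.

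The other genes of the neural progenitor list, 50 genes of which 30 were tested, moved in both directions between genotypes. Among those called in Nr6a1-/- cells, 1 was higher and 5 were lower at d2. The counts were 6 higher with 1 lower for d2.5, 4 with 5 for d3, 10 with 8 for d4, and 6 with 6 for d4G, with a median log2 fold change of -0.03 at d4 beside 0.02 for all genes. Without d4 wildtype replicate 2, 8 were higher and 5 lower at d4. Of the 4 with the largest changes at d4, Fabp7, a radial glial fatty acid binding protein, was higher by 4.24 (FDR = 7.21e-17) and Pax3, a dorsal neural tube factor, was lower (log2 fold change -3.798, FDR = 5.81e-07). The other two were Otx2 and Pou3f1, which were not called without that library (FDR = 0.436 and 0.953). At d3 the largest were Meis1 (-3.54), Msx2 (-2.49), Irx5 (-2.22) and Pax3 (-1.81). Among the other Sox genes, of which 6 were tested, 3 were lower and 0 higher at d4G. One of them, Sox2, the third SoxB1 factor, was not called between genotypes from d2 to d4. At d4G it held 8.18, 3.82 and 7.72 CPM against 23.7, 17.1 and 18.6 CPM in wildtype (log2 fold change -1.52, FDR = 7.82e-05). Sox17, also in the endoderm list, was lower at d2 (-2.54), d3 (-4.05) and d4G (-3.79). The response to Gdf11 differed between genotypes for Sox9 (-2.06, FDR = 0.000246) and Sox2 (-1.24, FDR = 0.0172).

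Genes of other cell types were counted in the same comparisons. At d4, 10 of 14 tested mesoderm genes were higher and 1 lower in Nr6a1-/- cells (8 and 1 without d4 wildtype replicate 2), led by Meox1 (5.67) and Mesp1 (4.70), and their summed level was 1518.7 to 1556.3 CPM against 1083.1 to 1272.8 CPM. At d3 it was 4 higher and 0 lower, at d4G 4 and 1, at d2.5 1 and 1, and at d2 0 and 1. Of 14 neuron genes, 1 was higher and 6 lower at d4 (2 and 2 without that library), with sums that overlapped, of 90.0 to 126 CPM against 106 to 175 CPM, and at most 2 were called in each direction at every other stage.

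Of 12 pluripotency genes 8 were lower and 0 higher at d4, and 3 were lower without that library, with sums of 68.7 to 84.5 CPM against 147 to 258 CPM. At d3, 7 were lower and 1 higher (215 to 232 CPM against 336 to 368 CPM). The higher gene was Pou5f1 (1.56, FDR = 9.74e-05), and of the lower ones Zfp42 and Klf2 lie on chromosome 8. At d2.5, 4 were lower and 1 higher (481 to 488 CPM against 641 to 691 CPM). At d2 the list had 2 lower and at d4G 4 lower and 1 higher. Of 8 endoderm genes 6 were lower at d4 with and without that library, with sums of 73.0 to 82.7 CPM against 147 to 243 CPM. The same list had 4 lower and 1 higher at d2, 4 lower at d2.5, 4 lower at d3 and 6 lower at d4G. Its summed level at d2.5 was higher in Nr6a1-/- cells (585 to 641 CPM against 428 to 519 CPM), with 0 genes called higher. Most of that sum was 1 gene, Epcam, with a mean of 539 CPM in Nr6a1-/- cells against 382 CPM in wildtype. The summed level of 10 feeder fibroblast genes, of which 5 were tested, was higher in Nr6a1-/- cells than in every wildtype library at the first 3 stages, where Sox1, Olig2, Sox11 and Irx3 were called. It was 44.7 to 46.4 CPM against 26.6 to 30.6 CPM at d2, 42.2 to 46.6 CPM against 28.3 to 39.5 CPM at d2.5 and 72.3 to 85.1 CPM against 58.9 to 67.6 CPM at d3. None of the 5 was called by edgeR at d2 or d2.5, where 3 and 1 had an unadjusted p below 0.05, and Thy1 was called higher and Col1a1 lower at d3. At d4, 1 was higher and 1 lower, and the sums overlapped, at 40.5 to 43.3 CPM in Nr6a1-/- cells and 41.4 to 43.2 CPM in wildtype. The part of any of these in the levels of the 10 factors was not tested.

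Across the 30 libraries, which share their stages, the correlation of log2 CPM was highest between Sox3 and Olig2 (r = 0.80) and between Sox11 and Nkx6-1 (r = 0.74), and lowest between Sox3 and Nkx6-1 (r = -0.70) and between Sox3 and Sox11 (r = -0.70). Sox4 ranged from -0.41 with Sox11 to 0.64 with Irx3. Among all tested genes, the profile most like that of Sox1 was Cyb5b (r = 0.91), which with Emc8, the next (r = 0.91), is also on chromosome 8. Irx3 was most like Folr1 (r = 0.93), Nkx6-1 most like Mvb12b (r = 0.93) and then Hoxd8 (r = 0.90), and Olig2 most like Rrbp1 (r = 0.96). The closest profile was C330004P14Rik for Sox3 (r = 0.95), Gnb1 for Sox11 (r = 0.94) and Mthfd2 for Pax6 (r = 0.92). These values describe the libraries, in which both stage and genotype differ over the same 10 groups.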

How the data were processed

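RNA was measured in 30 libraries of ES-Bruce4 mouse cells in 10 groups of 3 replicates, grouped by the sample labels. Nothing in the labels says that replicates came from separate cultures, so p-values measure the spread between these libraries, which may be technical. Libraries were primed at the poly(A) tail with oligos that carry an index and a UMI (a random tag for each molecule), and the submitters' processing notes name STAR, edgeR and mm10. Whether UMIs were collapsed, how strand was used and the annotation are not given in the sources used here.

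The authors deposited a table of raw counts per gene and library, which was the only table used, with 0 columns left unmatched. Per the file headers, 5 further tables by the authors hold log2 fold changes and p-values of their own comparisons and were not used. Of the gene symbols, 26 had turned into dates and 2 were given on more than 1 row.

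A gene was kept where some group had 2 or more libraries with over 10 counts and over 2 CPM, which left at least 99.2% of the counts of each library. Totals were adjusted with TMM, and edgeR 4.0.16 under R 4.3.3 fitted all 10 groups together, with 20 residual degrees of freedom. The 16 comparisons (genotype at each stage, Gdf11 response and its difference, stage steps and 2 differences of steps) were tested by glmQLFTest, 2-sided, and adjusted by Benjamini-Hochberg over all genes kept. FDR values in the report are these. Each standard error was derived from F (the log2 fold change over its root), and 95% intervals are their normal approximation. Ratios of pooled counts have exact 95% intervals for counting error only. Fitted fold changes of genes with no count in a group depend on the prior count. For correlations, 2 was the prior count of log2 CPM. The fit was tested on simulated data.

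Replicate pairs differed more than counting allows (chi-square per gene 1.46 to 7.00). The highest values, 5.86 and 7.00, were of d4 Nr6a1-/- replicate 1 with replicates 2 and 3 of its group. This library was thus the least like its group by this measure, ahead of d4 wildtype replicate 2. Deviations of same-numbered replicates correlated weakly, by -0.11 to 0.16. For pairs with the same index, the values were 0.117, 0.00193 and 0.163 between d4 and d4G in wildtype. They were 0.0238 between d4 and d4G for Nr6a1-/- replicate 1, and 0.0244 and 0.134 between d3 and d4 for Nr6a1-/- replicates 2 and 3. Positions are of GENCODE M21 on GRCm38, and promoter windows are from RefSeq. The members and the 7 gene lists were chosen with earlier results of these data known. List examples are the genes with the largest absolute log2 fold change among those called, at most 4 per list. Alternatives were RLE factors, no factors, no filter, DESeq2 1.42.0, only the libraries compared, a replicate block, thinning to the smallest total, chromosome 8 scaled on its own and leaving out each library. List counts without d4 wildtype replicate 2 were added after seeing the data.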

Additional observations from a re-analysis of the deposited data

Results flagged for a closer look

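For 2 results a test of the difference itself found that the genotypes differed under the same contrast. The change of Irx3 from d3 to d4 differed by -2.65 ± 0.60 on the log2 scale (SE, FDR = 0.00511, edgeR), with all 3 Nr6a1-/- libraries lower at d4 than at d3 and all 3 wildtype libraries higher. The response of Sox11 to Gdf11 differed by -0.59 ± 0.16 (FDR = 0.0400), with a rise in both genotypes that was smaller in Nr6a1-/- cells. Its FDR ran from 0.000313 to 0.142 over the alternatives. This difference was not called without d4 wildtype replicate 2, the library that stood apart from its group. It was also not called with only the libraries compared, after thinning or by DESeq2.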

How the results depend on the processing

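Of 128 tests of single factors 43 were called, and 27 of these were not lost under any of the alternatives run, which were 8 settings and the leaving out of each library compared. None of the 1867 values computed under alternatives changed direction while called. The number of factors called went from 2 to 1 at d2 without the filter, with chromosome 8 scaled on its own and after thinning, and from 1 to 2 at d2.5 after thinning. It went from 2 to 1 at d3 with chromosome 8 scaled on its own and with only the libraries compared, and from 5 to 3 at d4 without the filter, after thinning, with only the libraries compared and by DESeq2. For Gdf11 it went from 5 to 3 in wildtype and from 1 to 0 in Nr6a1-/- cells with only the libraries compared, and the difference in response from 1 to 0 with only the libraries compared, after thinning and by DESeq2. From d3 to d4 it went from 3 to 1 in wildtype after thinning and from 4 to 1 in Nr6a1-/- cells with only the libraries compared. The difference in the change from d2 to d3 went from 0 to 1 with RLE factors, without factors and without the filter, and to 2 with only the libraries compared. Where the cause is not the smaller number of libraries or counts, the cause was not tested.

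Leaving out 1 library at a time gave 1 to 3 factors called at d2, 1 to 2 at d2.5, 1 to 2 at d3, 3 to 5 at d4, 1 to 2 at d4G, 3 to 5 and 0 to 1 for Gdf11 in wildtype and Nr6a1-/- cells, 0 to 1 for the difference in response, 1 to 2 from d3 to d4 in wildtype, 2 to 4 and 2 to 3 from d2.5 to d3 and 3 to 5 from d3 to d4 in Nr6a1-/- cells, and 0 to 1 and 1 to 2 for the differences in the changes from d2 to d3 and from d3 to d4. Same-numbered replicates correlated by -0.11 to 0.16, and in 2 of 13 comparisons every library correlated best with its own number, so the numbers were not taken to pair the libraries. With a replicate block the only call to change was that of Nkx6-1 from d3 to d4 in wildtype (1.56, FDR = 0.0503), which left 2 factors called there. DESeq2 gave no adjusted p for 6 factors at d2 and in the change from d2 to d3 and for 2 at d2.5, which were left out. Depth limits Sox21 and Neurog2 throughout, and Sox1 and Olig2 from d3 on.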
